A study of Mus musculus with 2 samples.

Results

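The 9 homeobox genes of the TALE class described here are Pbx2, Pbx3, Pbx4, Meis1, Meis2, Meis3, Pknox1, Pknox2 and Tgif1. They were chosen by name as partners of Hox proteins and their relatives, and they are 9 of the 43346 genes in the tables. The data are RNA-seq libraries from mouse limb, strain C57BL/6J, taken at embryonic day 14.5. Each of the 2 libraries was prepared from pooled littermates of both sexes, from polyadenylated RNA longer than 200 nucleotides that was sequenced by strand as read pairs of 101 bases. The labels number the libraries as biological replicates 1 and 2 and give each its own biosample under a shared donor entry. They leave unsaid which limbs were dissected and if the pools are from different litters, so the spread between the libraries may be partly technical. There is 1 group, with no treatment, mutant or other age, and the values below describe levels and their spread rather than a contrast of conditions.

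TALE proteins carry a homeodomain, the DNA-binding fold of Hox proteins, that is lengthened by 3 extra residues in the loop between its first and second helices. Pbx proteins pair with Meis or Pknox proteins (the latter also called Prep), and these pairs bind DNA with Hox proteins and help keep Pbx in the nucleus. In the limb bud Meis1 and Meis2 are known for marking the proximal part and for responding to retinoic acid. Tgif1 is a corepressor of Smad and retinoid receptor targets, and loss of its human counterpart is a known cause of holoprosencephaly.

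The stretch that defines the class is printed here for one member of each family and for Meis2, because these sequences show how far the counted transcripts differ where the proteins are most alike. Each is the homeodomain coding sequence of 189 bases, 5′ to 3′ in the sense of the gene, spliced from GENCODE M21 transcripts (GRCm38). Capitals mark the codons of residues 27 to 29, bases 79 to 87, which belong to the lengthened loop.
Pbx2, chromosome 17: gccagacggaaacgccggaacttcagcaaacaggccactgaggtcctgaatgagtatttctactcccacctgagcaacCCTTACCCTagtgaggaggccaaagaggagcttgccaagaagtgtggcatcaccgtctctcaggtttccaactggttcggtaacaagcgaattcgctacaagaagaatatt
Meis1, chromosome 11: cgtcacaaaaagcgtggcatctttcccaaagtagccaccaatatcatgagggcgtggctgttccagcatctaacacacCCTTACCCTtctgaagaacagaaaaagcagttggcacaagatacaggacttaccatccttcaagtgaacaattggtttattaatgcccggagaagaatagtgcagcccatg
Meis2, chromosome 2: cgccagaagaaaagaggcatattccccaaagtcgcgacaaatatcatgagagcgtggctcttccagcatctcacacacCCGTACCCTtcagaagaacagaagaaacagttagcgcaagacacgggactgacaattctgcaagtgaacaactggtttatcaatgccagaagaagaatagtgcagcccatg
Pknox1, chromosome 17: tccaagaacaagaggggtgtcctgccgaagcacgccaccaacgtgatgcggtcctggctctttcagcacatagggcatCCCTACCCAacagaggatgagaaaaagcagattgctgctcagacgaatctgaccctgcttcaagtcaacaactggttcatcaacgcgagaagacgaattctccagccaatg
Tgif1, chromosome 17: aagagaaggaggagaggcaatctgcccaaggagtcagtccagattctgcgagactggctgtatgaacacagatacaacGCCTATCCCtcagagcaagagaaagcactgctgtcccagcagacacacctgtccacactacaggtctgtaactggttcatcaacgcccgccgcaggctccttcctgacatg

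When translated, 8 of the 9 members had the same residues as Pbx2 at all 3 marked positions (Pbx2 itself counted), and Tgif1 had 2 of the 3. Meis1 and Meis2 had 62 of 63 residues in common (98.4%) but 159 of 189 bases (84.1%). Pbx2 and Pbx3 shared 61 residues, Pknox1 and Pknox2 shared 59, and Pbx2 and Pbx4 shared 58. Across families the likeness was lower, with 44 residues shared by Meis1 and Pknox1, 27 by Pbx2 and Meis1, 22 by Pbx2 and Pknox1, and 23 by Pbx2 and Tgif1. Within the homeodomain the members of a family thus differ more in bases than in residues.

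The libraries held 110172148 and 103363136 gene counts in replicates 1 and 2, and a gene with no count could still have had 3, which is 0.0272 and 0.0290 CPM (counts scaled to library size). All 12 genes listed as a check of the tissue label were detected, led by Twist1 (248 ± 44.7 TPM) and Prrx2 (183 ± 51.1 TPM; SD, n = 2 here and throughout), both regulators of limb mesenchyme. TPM, a relative abundance of transcripts, scales counts by the length open to fragments and can be set side by side between genes. Markers of other cells were also present. All 7 skeletal muscle genes were detected (Actc1 1132 and Myog 134 TPM), as were 7 of 7 endothelial genes (Cdh5 49.2 and Erg 38.4 TPM), 5 of 5 epidermal genes (Krt5 285 and Krt14 219 TPM) and 5 of 5 macrophage genes (C1qa 25.9 and Csf1r 15.1 TPM). Among Schwann cell genes 5 of 6 were detected (Sox10 19.0 and Erbb3 14.7 TPM, Cdh19 0.865 TPM), among megakaryocyte and early blood genes 6 of 7 (Pf4 37.0 and Kit 11.8 TPM), and among neuronal genes 5 of 7 (Tubb3 9.40 and Dcx 8.65 TPM, Elavl4 0.815 and Elavl3 0.425 TPM). In such bulk tissue fewer cells of a type and less RNA per cell cannot be told apart.

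All 9 members were detected, that is, had at least 1 TPM in both libraries, against 62.8% of the 21474 protein-coding genes. Their median level was 23.6 TPM, and 5 of the 9 lay above 19.4 TPM, the median of the 13696 protein-coding genes that averaged 1 TPM or more. The members summed to 303 ± 5.52 TPM. Pbx genes gave 152 ± 0.594 TPM of this, Tgif1 58.2 ± 6.05 TPM, Meis genes 55.5 ± 5.90 TPM and Pknox genes 37.2 ± 4.78 TPM.

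Pbx2 (ENSMUSG00000034673, mm10 chr17:34591266-34597400, plus strand), a broadly expressed Pbx protein, was the highest member. It stood at 117 TPM in replicate 1 and 122 TPM in replicate 2, from 13410 and 12783 counts, and made up 39.5% of the members' TPM. The libraries differed little, and only Pbx2 passed 100 TPM in either of them. Its counts were not whole numbers, the sign of reads shared with another gene, and its exons overlap Gpsm3 on the same strand. Gpsm3 itself was listed at 3.11 and 3.29 TPM. Pbx3 (ENSMUSG00000038718, chr2:34171457-34373142, minus strand), a Pbx protein best known from the nervous system and from leukaemia, stood at 28.9 and 25.1 TPM, from 5081 and 4198 counts. Pbx4 (ENSMUSG00000031860, chr8:69832491-69872292, plus strand), the member known chiefly from testis, was the lowest at 5.50 and 5.11 TPM. Its 253 and 250 counts were also the fewest of the 9. No germ cell gene on the testis list reached 1 TPM in either library: Ddx4 had 0.535 TPM, Dazl 0.060, Sycp3 0.045, and Prm1, Prm2 and Tnp1 had 0 counts in both.

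Meis3 (ENSMUSG00000041420, chr7:16175090-16186504, plus strand), known from hindbrain patterning, had the highest TPM of the Meis genes, with 24.4 and 28.1 TPM from 2513 and 2354 counts. Meis2 (ENSMUSG00000027210, chr2:115863064-116065839, minus strand) stood at 21.9 TPM in replicate 1 and 13.3 TPM in replicate 2, from 4101 and 2387 counts. By mean CPM, which ignores length, Meis2 was the highest Meis gene at 30.1, above Meis3 at 22.8 and Meis1 at 22.3. Meis1 (ENSMUSG00000020160, chr11:18879817-19018985, minus strand) stood at 13.5 and 9.90 TPM, from 2854 and 1946 counts. Meis1 and Meis2, known as proximal markers of the limb bud, were therefore both lower in replicate 2, while Meis3 had the higher TPM there. Meis1 counts were not whole, and its exons overlap the same-strand model Gm37818, listed at 0.260 and 0.180 TPM.

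Pknox1 (ENSMUSG00000006705, chr17:31564734-31607693, plus strand), the more widely expressed Pknox gene, stood at 22.3 and 24.9 TPM, from 5552 and 5402 counts. Pknox2 (ENSMUSG00000035934, chr9:36890982-37147407, minus strand) stood at 11.5 and 15.7 TPM, from 2687 and 2651 counts. Its counts were thus nearly equal in the libraries while its TPM was not, a point taken up with its transcripts. Tgif1 (ENSMUSG00000047407, chr17:70844205-70853546, minus strand) was the second highest member, with 53.9 and 62.5 TPM from 5202 and 5471 counts.

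**Figure D1:**
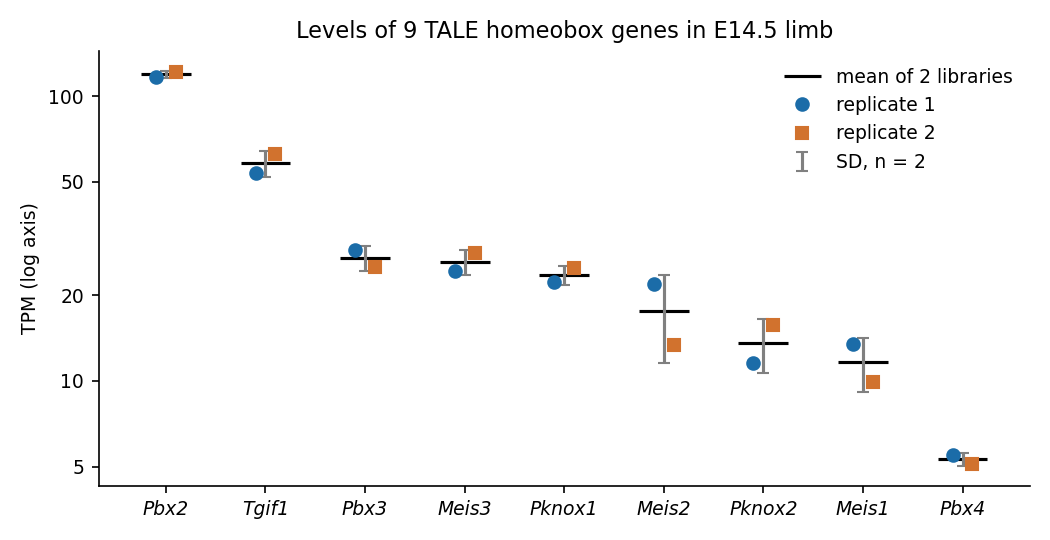
TPM (log axis) of each member in both libraries, with the mean as a line and the SD over n = 2 as a bar, in order of the mean. Pbx2 lies near 120 TPM, Tgif1 near 58.2 TPM; the next 6 genes run from Pbx3 down to Meis1 at 11.7 TPM, and Pbx4 at 5.31 TPM.

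The order of mean levels ran Pbx2, Tgif1, Pbx3, Meis3, Pknox1, Meis2, Pknox2, Meis1, Pbx4. Neighbours in this order were compared on the scale of log2(TPM + 1), with 95% intervals from a limma fit that borrows the replicate spread of 15055 genes. The intervals are per pair and were not adjusted for the number of pairs. They combine the variances of both genes as if independent, although both were measured in the same libraries. They therefore do not measure the spread of the difference itself. For 3 of the 8 neighbouring pairs the interval left out 0. Pbx2 exceeded Tgif1 by 1.03 (0.53 to 1.53), Tgif1 exceeded Pbx3 by 1.08 (0.61 to 1.55), and Meis1 exceeded Pbx4 by 0.99 (0.53 to 1.46). These are steps at the top and at the bottom of the order, with 6 genes between them.

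Among those 6 genes the interval of every neighbouring pair included 0. The difference was 0.04 (-0.42 to 0.49) for Pbx3 over Meis3 and 0.15 (-0.30 to 0.60) for Meis3 over Pknox1. It was 0.44 (-0.12 to 1.00) for Pknox1 over Meis2, 0.32 (-0.27 to 0.92) for Meis2 over Pknox2 and 0.20 (-0.31 to 0.72) for Pknox2 over Meis1. The sign itself turned between the libraries for Pbx3 and Meis3, for Meis2 and Pknox2, and for Pknox2 and Meis1. Of the 28 pairs that are not neighbours, 26 had an interval without 0; the exceptions were Pbx3 over Pknox1 (0.19, -0.26 to 0.63) and Meis2 over Meis1 (0.53, -0.06 to 1.12). With no filter on low genes, where the fit has fewer degrees of freedom, 22 of the 28 had one: Pbx3 over Meis2, Meis3 over Meis2, Meis3 over Pknox2 and Pknox1 over Pknox2 then included 0 as well. The place of Pknox1 depended on the deposited estimate used. By posterior mean TPM, which averages over the possible assignments of reads, it had 31.6 TPM and the difference of Meis3 over Pknox1 was -0.26 (-0.71 to 0.19). A Pknox1 transcript of 161 nucleotides, with 0 counts and an effective length of 1.65 and 1.75 nucleotides, took 8.03 and 8.11 of that posterior mean TPM.

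**Figure D2:**
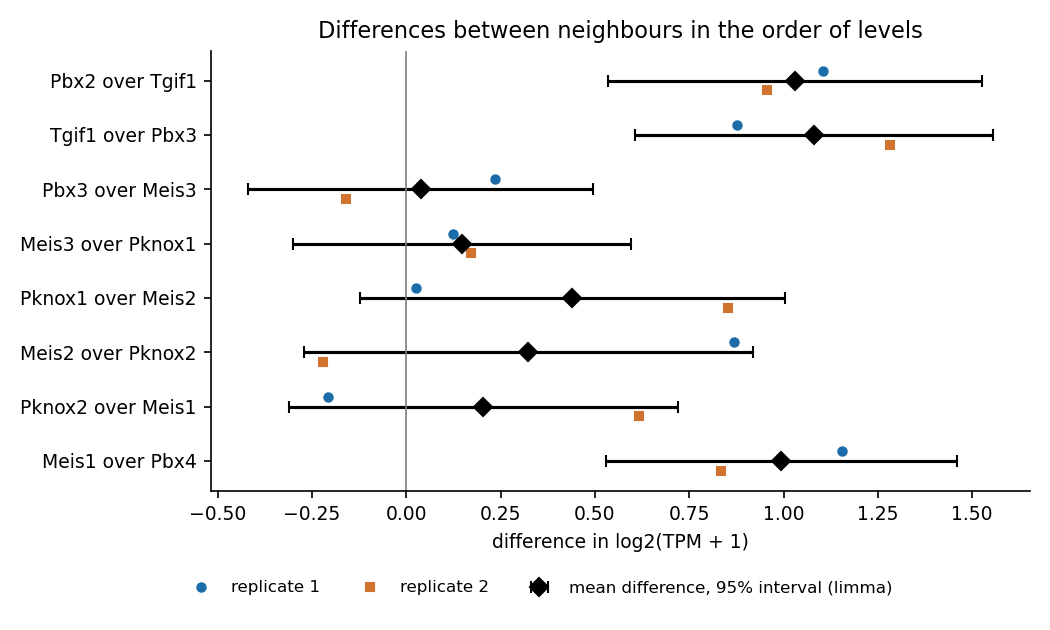
Differences in log2(TPM + 1) between neighbouring members, as the mean with its 95% limma interval (diamonds and bars) and in each library (circles and squares). The intervals leave out 0 for Pbx2 over Tgif1, Tgif1 over Pbx3 and Meis1 over Pbx4, and include 0 for the other 5 pairs.

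The libraries were then compared by their counts, scaled by TMM library sizes, as log2 ratios of replicate 2 over replicate 1. An exact two-sided conditional binomial test with Benjamini-Hochberg adjustment over 20396 genes compared these libraries, not conditions; its p-values cover counting error only and treat reads as independent molecules. It called 3 members lower and 4 higher in replicate 2 at an adjusted p under 0.05, where 30.2% of all genes tested were called lower and 30.3% higher. At this depth a call was thus common among genes of any kind. The median absolute log2 ratio of the members was 0.10, against 0.21 over the 15008 genes that averaged 1 TPM or more.

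Meis2 had the largest ratio of the 9, with a log2 ratio of -0.67, or 1.59-fold more in replicate 1 (adjusted p = 2.75e-73 in the exact binomial test), and 7.19% of the 15008 genes had a larger absolute ratio. Meis1 followed with -0.44, or 1.36-fold more in replicate 1 (adjusted p = 1.16e-24 in the same exact test), and 18.3% of genes had a larger one. These 2 genes, known as proximal markers of the limb bud, thus moved the same way between the libraries, but neither lay outside the spread of genes in general. Where in this bulk limb they were expressed was not measured. Tgif1 was higher in replicate 2 by 0.19 (adjusted p = 9.15e-11, exact binomial test), and Pbx3 lower, at -0.16 (adjusted p = 2.16e-07, exact binomial test). Pknox2 at 0.09, Pknox1 at 0.07 and Pbx2 at 0.04 were called with TMM scaling (adjusted p = 0.0309, 0.0137 and 0.0226, exact binomial test). None of these 3 was called when library size alone was used (adjusted p = 0.102, 0.0891 and 0.268, exact binomial test). Pbx4 at 0.10 and Meis3 at 0.02 were not called (adjusted p = 0.562 and 0.723, exact binomial test).

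**Figure D3:**
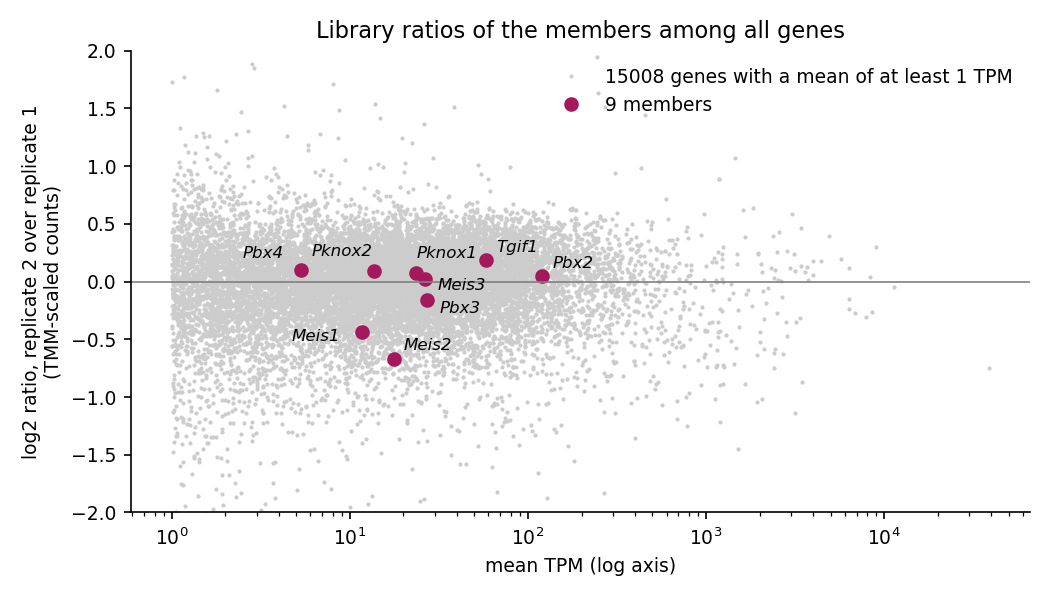
Log2 ratio of replicate 2 over replicate 1 from TMM-scaled counts against mean TPM (log axis) for 15008 genes (grey) and the 9 members (coloured); 80 genes lie beyond the vertical axis at 2 and -2. Meis2 at -0.67 and Meis1 at -0.44 lie lowest of the members, and the other 7 lie between -0.16 and 0.19.

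Cell type markers differed between the libraries as well. The calls below stand beside 30.2% of all genes tested called lower in replicate 2 and 30.3% called higher. The summed TPM of the 5 epidermal genes was 991 in replicate 1 and 677 in replicate 2, with 4 called lower and none higher. That of the 7 neuronal genes was 35.6 and 30.5, with 5 called lower and none higher. The 12 limb identity and limb mesenchyme genes summed to 744 and 987 TPM, with 9 called higher and 1 lower. The megakaryocyte and early blood genes summed to 65.6 and 80.4 TPM, with 6 of 7 called higher. Sums for muscle (1537 and 1519 TPM) and endothelium (197 and 203 TPM) were closer, with 3 lower and 4 higher of 7, and 4 lower and 2 higher of 7, called. Macrophage genes summed to 61.6 and 68.5 TPM (1 lower and 3 higher of 5 called) and Schwann cell genes to 60.6 and 70.3 TPM (1 lower and 3 higher of 6 called). The part of these cells in the Meis1 and Meis2 ratios was not tested.

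Transcript shares told the members apart further. Each share is the deposited percent of a gene's TPM given to a transcript, and a transcript was counted as encoding the homeodomain when its annotated coding sequence holds all 63 residues. This was so for 31 of the 92 transcripts of the 9 genes. The share of TPM in them was 94.0 ± 2.81% for Pbx3, 88.8 ± 2.29% for Tgif1, 84.1 ± 1.71% for Pknox1, 81.2 ± 15.3% for Pknox2, 80.4 ± 0.224% for Meis2 and 76.3 ± 2.70% for Pbx2. Meis1 had 60.0 ± 0.308%, Meis3 24.8 ± 6.42% and Pbx4 16.4 ± 6.98%. The last value rests on few counts and was 33.1% when taken as a share of counts.

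In TPM of homeodomain-coding transcripts, Meis3 moved from place 4 to place 8 in the order. It stood at 7.16 and 5.71 TPM in replicates 1 and 2, below Meis2 (17.6 and 10.7 TPM) in both libraries and below Meis1 (8.05 and 5.97 TPM) in both. Pbx2 still led with 87.1 and 95.4 TPM, then Tgif1 with 47.0 and 56.5 TPM, and Pbx4 was left with 0.630 and 1.09 TPM. On this measure Meis2 was the highest Meis gene. Transcripts that hold the homeodomain sequence outside an annotated coding sequence are not counted in it. They took 44.9% of Meis3 TPM, 35.3% of Meis1 TPM and 6.56% of Meis2 TPM on average. The place of Meis3 therefore depends on how such models are annotated.

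**Figure D4:**
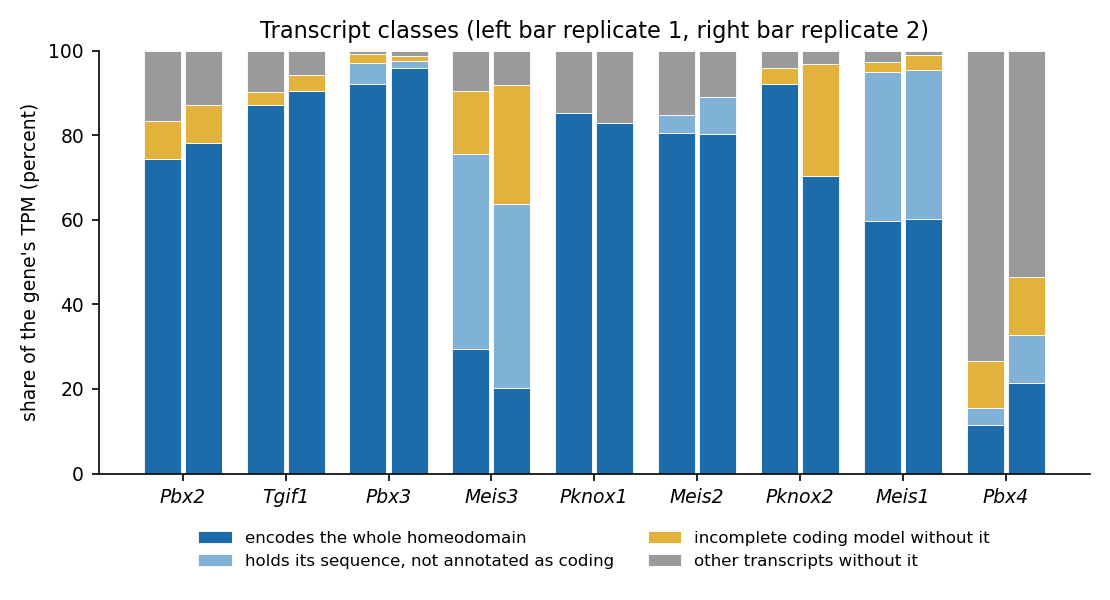
Share of each gene's TPM (percent) by transcript class, replicate 1 on the left and replicate 2 on the right of each pair. The class that encodes the whole homeodomain takes 60.0% or more on average in 7 genes, 24.8% in Meis3 and 16.4% in Pbx4.

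Meis3 was led by Meis3-202, a model with a retained intron, at 43.3% and 40.4% of its TPM (41.9 ± 2.07%), from 1368 and 1348 of its counts. It holds the homeodomain sequence but has no annotated coding sequence. The coding transcripts Meis3-201 (378 residues) and Meis3-205 (361 residues) had 14.3 ± 2.85% and 10.5 ± 3.57%. Meis3-208, an incomplete coding model of 659 nucleotides, went from 8.13% to 23.3% of TPM between the libraries. Without it Meis3 stood at 22.4 and 21.6 TPM, so the higher TPM of Meis3 in replicate 2 rested on this short model. Models with a retained intron made up 49.7 ± 2.63% of Meis3 TPM and 41.6 ± 16.2% of Pbx4 TPM.

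Meis1 was split mainly between Meis1-201, which encodes 390 residues (39.7% and 36.5% of TPM), and Meis1-203, annotated as a processed transcript without coding sequence (35.2% and 35.4%). Meis1-209, which encodes 465 residues, had 11.2 ± 1.79%. Meis1-203 does hold the homeodomain sequence, so the share of 60.0% for Meis1 depends on how that model is annotated. Meis2 had no dominant transcript. Meis2-203 (470 residues) had 27.5% and 20.2%, Meis2-202 (393 residues) 23.9% and 18.9%, Meis2-204 (400 residues) 7.86% and 15.1%, and Meis2-206 (394 residues) 9.29% and 13.6%. Longer and shorter coding forms were thus present side by side, and all 4 encode the homeodomain.

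Pbx3 was the plainest of the Pbx genes, with 2 coding transcripts that between them took most of its TPM. Pbx3-202, which encodes the shorter protein of 351 residues, had 55.7% and 56.6%, and Pbx3-201, which encodes 434 residues, had 36.3% and 39.4%. The shorter form led in both libraries by more than the spread between them. In Pbx2 the lead changed between libraries. Pbx2-203 (348 residues) had 22.5% and 36.4%, Pbx2-201 (430 residues) 26.4% and 19.4%, Pbx2-205 (370 residues) 25.6% and 22.5%, and Pbx2-202, a model with a retained intron, 16.6% and 12.7%. By counts, which long transcripts gather more of, Pbx2-201 led with 43.1% on average.

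Pbx4 was led by Pbx4-208, a model with a retained intron, at 41.0% and 22.5%, which is only 86.0 and 38.8 counts. Its single transcript that encodes the homeodomain, Pbx4-201 (378 residues), had 11.5% and 21.4% of TPM from 64.3 and 102 counts. By counts Pbx4-201 led, with 33.1% on average. Pbx4-202, an incomplete coding model, had 12.3 ± 1.71%, and the nonsense-mediated decay models Pbx4-204 and Pbx4-205 had 11.3 ± 3.52% and 10.6 ± 1.30%. With so few counts, which Pbx4 transcript leads could not be settled.

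Both Pknox genes had a clear leader that encodes the full protein. Pknox1-201 (436 residues) had 72.6% and 64.6% of TPM, and Pknox1-202, which encodes a protein of the same length, had 10.6% and 16.03%. Pknox2-201 (474 residues) had 72.7% and 61.2%, and Pknox2-202, also 474 residues, had 16.9% and 4.21%. Pknox2-209, an incomplete coding model of 439 nucleotides, went from 3.30% to 25.8% of Pknox2 TPM on 6.85 and 60.3 counts. With it the log2 ratio of TPM was 0.45 against 0.09 by counts; without it Pknox2 stood at 11.2 and 11.7 TPM (11.4 ± 0.354). The higher TPM of Pknox2 in replicate 2 therefore rested on 1 short model.

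**Figure D5:**
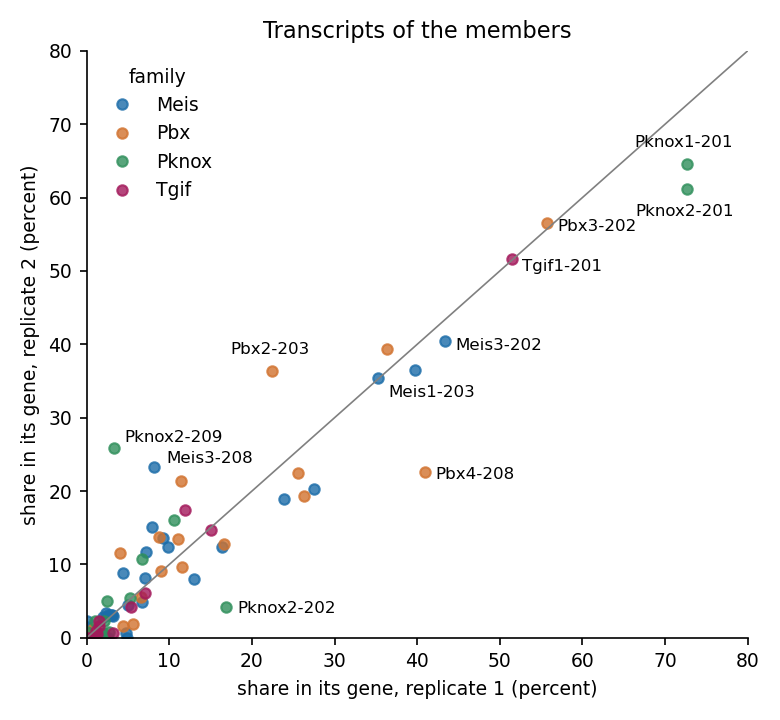
Share of each transcript in its gene's TPM (percent), replicate 1 against replicate 2, coloured by family, with the line of equal shares. Pknox2-209 (3.30% and 25.8%), Meis3-208 (8.13% and 23.3%) and Pbx2-203 (22.5% and 36.4%) lie well above the line, and Pbx4-208 (41.0% and 22.5%) and Pknox2-202 (16.9% and 4.21%) well below it.

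Tgif1-201, which encodes 272 residues, had 51.5% and 51.7% of Tgif1 TPM. Tgif1-204, an incomplete model that holds the homeodomain, had 14.9 ± 0.290%, and Tgif1-202 (252 residues) had 14.7 ± 3.95%. Over all members the leading transcript was the same in both libraries for 8 of 9 genes, close to the 88.2% of 10473 genes with at least 2 transcripts and 100 counts in each library. The leading share had a median of 41.9% in the members and 68.4% in those genes, and 8 of the 9 members lay below the latter. Those genes were not matched to the members by number of annotated transcripts, which ran from 5 in Pbx2 to 19 in Meis2. The part of that number in the lower share was not tested.

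Tgif1 transcripts begin at several starts, for which RefSeq (GRCm38.p6) gives 5 promoter windows of 300 bases, from 250 before to 50 after each start. The window of Tgif1-201 is printed because 51.6 ± 0.129% of Tgif1 TPM begins there. It lies at chr17:70851161-70851460 on the minus strand. Capitals mark TGACAG, the letters known as the core site of Meis, Pknox and Tgif proteins, searched on both strands.
Tgif1 promoter window of Tgif1-201: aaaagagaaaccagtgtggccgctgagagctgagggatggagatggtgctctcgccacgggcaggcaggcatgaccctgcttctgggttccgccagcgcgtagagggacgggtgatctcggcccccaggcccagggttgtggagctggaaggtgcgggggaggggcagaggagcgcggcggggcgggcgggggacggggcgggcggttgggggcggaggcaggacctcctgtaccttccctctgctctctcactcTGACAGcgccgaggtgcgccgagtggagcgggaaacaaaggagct
The window of Tgif1-203, Tgif1-204, Tgif1-210 and Tgif1-212 took 19.8 ± 1.44% of TPM, and that of Tgif1-202 took 14.7 ± 3.96%. TGACAG was in 2 of the 10 windows matched to 6 members, both of Tgif1, and in 19.2% of the 32851 promoter windows of the table. The other Tgif1 window with a match had no transcript of the tables at its start. A match describes letters in a window and is no measure of binding.

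Hox genes, whose proteins these factors accompany on DNA, were detected from both ends of the clusters. Of 23 genes in paralogue groups 1 to 8, 21 were detected, with a median of 3.06 TPM. The highest were Hoxa7 (15.5 ± 0.827 TPM) and Hoxd4 (13.4 ± 1.66 TPM), and those under 1 TPM were Hoxd1 (0.450 TPM) and Hoxb1 (0.045 TPM). Of 16 genes in groups 9 to 13, which pattern the limb along its length, 15 were detected, with a median of 22.4 TPM. Hoxd13 (107 ± 22.4 TPM) and Hoxa10 (102 ± 13.8 TPM) led, and Hoxb13 stood at 0.010 TPM. The median log2 ratio between the libraries was 0.0048 in groups 1 to 8 (5 called lower, 4 higher) and 0.28 in groups 9 to 13 (3 lower, 8 higher), beside 0.0047 over all 15008 genes. For the calls in these and the following lists, the shares over all genes tested were 30.2% lower and 30.3% higher.

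The 7 proximal to distal limb markers had a median of 41.5 TPM, with 6 detected, and were led by Hoxd13 and Msx1 (82.8 ± 21.6 TPM). Between the libraries 5 were called higher in replicate 2 and none lower, with a median log2 ratio of 0.31. The 5 were Hoxd13, Msx1, Hoxd11, Hoxa11 and Hoxa13, genes of the middle and distal limb. Shox2, the proximal marker of the list, had a log2 ratio of -0.03 by counts and was not called (adjusted p = 0.196, exact binomial test). Its TPM was nevertheless higher in replicate 2, at 48.7 in replicate 1 and 68.1 in replicate 2. All 7 other TALE class genes were detected, led by Irx1 (53.2 ± 11.9 TPM) and Irx2 (46.7 ± 0.799 TPM), Iroquois factors of limb patterning. Their median was 34.0 TPM, with 1 called lower and 4 higher.

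Of 18 genes of the retinoic acid axis, the signal to which Meis1 and Meis2 are known to respond, 16 were detected, with a median of 29.9 TPM. The cellular retinoic acid binding proteins led, Crabp1 with 665 and 518 TPM and Crabp2 with 159 and 144 TPM. Aldh1a1, a retinaldehyde dehydrogenase, had 0.450 TPM and Cyp26c1, which degrades retinoic acid, 0.080 TPM. Of the 18 genes 3 were called lower and 9 higher in replicate 2, with a median log2 ratio of 0.19. Over all genes tested 30.2% were called lower and 30.3% higher.

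All 13 Tgif1 partners and Smad corepressors were detected, with a median of 68.9 TPM, led by the deacetylase Hdac1 (174 ± 0.983 TPM) and the corepressor Ctbp1 (170 ± 13.7 TPM), with 6 called lower and 6 higher. Of 10 Pbx and Meis interactors and cofactors 9 were detected, with a median of 40.2 TPM. Hdac3 (150 ± 13.6 TPM) and the myogenic factor Myod1 (79.1 ± 17.1 TPM) led, and Gata4 stood at 0.315 TPM, with none called lower and 8 higher. The calls of both lists stand beside 30.2% lower and 30.3% higher over all genes tested. No gene is named for a likeness of pattern to a member, because 2 libraries give each gene a single ratio.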

How the data were processed

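Per the text deposited with each library, its tables, made by a program not given in the sources used here, rest on mm10 and the GENCODE M4 annotation. The authors deposited, per the file headers, expected counts (reads per gene or transcript after sharing ambiguous reads), TPM and posterior mean TPM, effective lengths and credibility bounds, and, for transcripts, the share of the gene in percent. How reads are shared out among transcripts bears on short models and on paralogues, so shares are estimates. Counts of 7 of the 9 members were within 0.005 of whole numbers in both libraries.

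Names, coordinates, biotypes and coding sequences came from GENCODE M21 (GRCm38, the assembly of mm10) by stable identifier. Of the members' 92 transcripts, 1 had no match and 6 differed in length between the releases. Rows that name no gene (spike-ins, phiX, tRNA) held 3.73% and 4.30% of counts and were left out. The gene counts that remained were 110172148 and 103363136, of 114445910 and 108010486 in all; their number limits the precision of low genes.

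From the deposited TPM, levels were averaged over the 2 libraries. Differences between members came from an intercept-only limma (3.58.1) fit to log2(TPM + 1), moderated by eBayes with a trend, on the 15055 genes that averaged 1 TPM or more or are members. Expected counts were rounded and compared between libraries by an exact two-sided conditional binomial test (scipy 1.17.1) with TMM factors from edgeR (4.0.16; 1.01 and 0.993), a prior count of 0.5 for ratios, a minimum of 10 counts in total and Benjamini-Hochberg adjustment at 0.05. edgeR's quasi-likelihood test cannot be run with 1 library on each side. The limma and binomial steps were tested only on simulated data of the kind each assumes, normal values and Poisson counts drawn independently for each gene. Such data cannot show how the steps fare with the spread of real libraries. Alternatives were DESeq2 (1.42.0) size factors, library size alone, no filter, a pseudocount of 0.1, CPM, posterior mean TPM, detection at 5 or 0.1 TPM and each library left out.

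All members are named, with transcripts of a mean share of at least 10%. From each list the 2 highest genes are named, and those under 1 TPM in both libraries where 5 or fewer; in the testis list, where 6 were, they are named after their values were seen. Meis1, Meis2, Meis3, Pknox2 and Pbx4 transcripts singled out for their change between libraries, overlapping genes, and Shox2, Hoxd11, Hoxa11 and Hoxa13 were also chosen after seeing values. The members and lists were chosen with earlier results of these data known. Protein sequences were not used here.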

Additional observations from a re-analysis of the deposited data

How the results depend on the processing

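Of 127 values recomputed with both libraries, 92 kept their direction, side of the threshold or place within the replicate spread. Another 72 were recomputed from 1 library. For levels and shares these say nothing of stability, since either of 2 values lies within 1 SD of their mean. Differences between neighbours were judged by sign, and only where the interval left out 0. The order of members was judged by the places kept. With 1 group there were no conditions to pair. Differences between members could be paired by library, but the intervals did not use this pairing. CPM, which ignores gene length, kept 3 of 9 members at their place in the order, and their intervals left out 0 for 5 neighbouring pairs rather than 3: Tgif1 over Pbx3 was 0.20 and no longer clear of 0, Pbx3 over Meis3 was 0.90 and Pknox1 over Meis2 0.79, both now clear of 0, and Meis3 over Pknox1 reversed to -1.14. With posterior mean TPM, Pknox1 rose to 31.6 and Pbx4 to 5.73 TPM, Meis3 over Pknox1 reversed to -0.26, and Pknox1 over Meis2 was 0.73, now clear of 0. Of the 28 pairs that are not neighbours, 26 were clear of 0, against 22 with no filter, 22 by CPM and 25 by posterior mean TPM. Without its short transcript that M21 lacks, a choice made after seeing the data, Pknox1 had 23.5 posterior mean TPM. Without Meis3-208 or Pknox2-209, also chosen after seeing the data, Meis3 had 22.0 and Pknox2 11.4 TPM. Leaving out 1 library kept 5 to 7 members at their place. Taken as shares of counts, homeodomain-coding transcripts made up 93.1% of Pbx2, 86.3% of Tgif1, 97.6% of Pbx3, 95.8% of Pknox1, 89.6% of Meis2, 74.6% of Meis1 and 33.1% of Pbx4, and by posterior mean TPM 62.4% of Pknox1 and 72.6% of Meis2. Leading transcripts by counts had 57.6% (Tgif1), 59.7% (Pbx3), 55.9% (Meis3), 84.4% (Pknox1) and 80.3% (Pknox2), and by posterior mean 51.1% (Tgif1), 54.9% (Pbx3) and 50.6% (Pknox1). Library size alone turned the Meis3 library ratio to -0.0023, which was still not called. Taken from TPM with a pseudocount of 0.1, the ratio of Pbx4 turned to -0.10, and no test was run on that scale. The genes called between libraries numbered 12291 to 12348 under the other settings, against 12345. Except where the setting itself drops transcripts or length, the cause was not tested. With 2 libraries, intervals rest on spread borrowed from other genes, and Pbx4 on few counts.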
